A study of Mus musculus with 12 samples.

Results

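The genes described here encode the machinery that copies DNA and the factors that let a cell enter S phase. They were chosen by gene symbol, with no measured value in the rule, although earlier results of these data were known. All 41 were present among the 24062 symbols of the count table. Transcript levels were measured by RNA sequencing of whole mouse hearts, one library per mouse, in 4 groups of 3 mice. WT mice and KI/KI mice, which are homozygous for the c.T38>G allele of Lemd2 in every tissue, were 2 months old. The other groups were taken at postnatal day 1 (P1). Floxed mice carried Lemd2 alleles flanked by loxP sites and no Cre, and cKO mice carried the floxed alleles with a Myh6-Cre transgene, so that the deletion was directed to cardiomyocytes and the other cells of the heart kept the gene. Lemd2 encodes a LEM-domain protein of the inner nuclear membrane. Whole tissue was used, and in bulk RNA fewer cells in S phase and less replication transcript per cell cannot be told apart.

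Replication is prepared in G1, when Cdc6 and Cdt1 load the MCM2-7 helicase onto origins, and geminin (Gmnn) blocks a further round of loading once S phase has begun. Cyclin E with Cdk2 and the activator E2F factors push the cell over the G1/S boundary, and E2F sites in the promoters of many replication genes tie their transcription to that step. Mouse cardiomyocytes still synthesize DNA in the first days after birth and then largely leave the cell cycle, whereas fibroblasts, endothelial cells and immune cells of the heart can go on dividing.

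Total counts ranged from 37063669 to 44789753 per library, and the gene with the fewest reads among the 41, Gins2, had at least 18 reads in every heart. Levels are given as CPM, the count as a rate per 1000000 counts of the library, scaled by TMM over the 12 hearts. At P1 the cKO hearts held 6.59, 13.1 and 11.3 CPM of Lemd2 itself, and the floxed hearts 24.3, 25 and 25.4 CPM. The adult WT hearts held 32, 34.8 and 32.9 CPM and the KI/KI hearts 25.6, 25.2 and 24.8 CPM. Summed over 8 marker genes, cardiomyocyte transcripts were abundant in every heart, as the tissue label requires. The library of cKO heart 4 stood apart with 612 CPM of Xist and 0.0399 CPM of the Y-linked gene Ddx3y. The other 11 hearts had Xist at 2.02 CPM or below and Ddx3y at 96.9 to 194 CPM. By these genes cKO heart 4 had a female pattern and the other 11 hearts, all floxed hearts among them, a male one. Sex is not in the labels. Lung markers summed to between 16.8 and 99.6 CPM in WT heart 3, KI/KI heart 4, floxed hearts 1 and 2 and cKO heart 4 and to 3.09 CPM or below in the rest, although Sftpc, a defining lung gene, stayed at 0.338 CPM or below. Exons of 10 of the 41 genes overlap an exon of another counted gene on the opposite strand, and whether strand was used in counting is not given in the sources used here. The overlap takes up 67.3% of the exon length of Gins2, shared with Gse1, and 52.5% of that of Chaf1a, shared with Ubxn6, so reads of these pairs may not be separable. It takes up 17.4% for Ccne2, 15.1% for Rfc2, 12.7% for Rfc4 and 10.7% for Rfc5, and less than 10% for the rest.

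The hearts fell into an adult and a P1 set for nearly every gene. The geometric mean over the 41 genes was 5.17, 4.79 and 4.67 CPM in the 3 WT hearts, 4.99, 6.52 and 5.09 in the KI/KI hearts, 14.8, 13.8 and 21 in the floxed hearts and 14.9, 20.7 and 36.1 in the cKO hearts. Adult hearts kept within a narrow band apart from KI/KI heart 5, and the P1 hearts spread more widely, with cKO heart 6 far above the rest. Per kilobase of exon, Gmnn was the highest of the 41 in WT hearts at a mean of 22.8 CPM per kb, followed by Gins4 at 11.1 and Pcna at 10.9. In floxed hearts Rrm2 was first at 19.2 CPM per kb, followed by Pcna at 18.4 and Gmnn at 16.4. Mcm10, which helps start the helicase, was the lowest per kilobase at both ages, at 0.0849 CPM per kb in WT and 0.823 in floxed hearts.

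**Figure D1:**
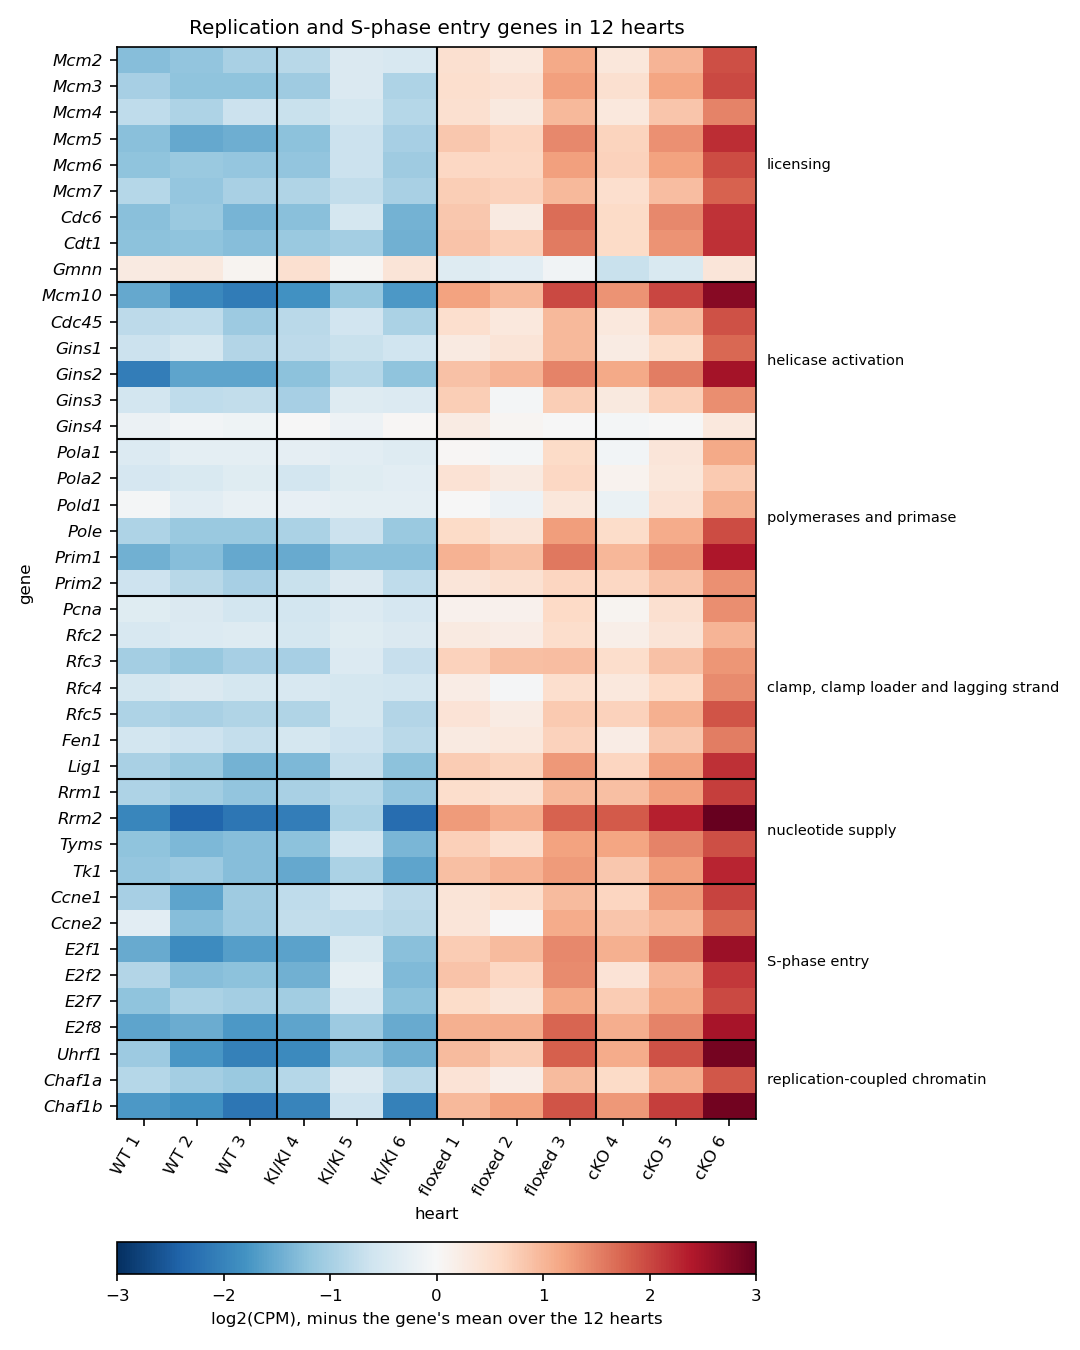
Levels of the 41 genes (rows, grouped by role) in the 12 hearts (columns), drawn as log2 CPM minus the mean of the gene over the 12 hearts, with red above and blue below that mean. Adult hearts are below the mean and P1 hearts above it for nearly every gene, Gmnn and Gins4 are close to level, and the column of cKO heart 6 is the darkest red.

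Adult WT hearts were compared with P1 floxed hearts to describe the genes over postnatal life. Age and the floxed allele differ together between these groups and cannot be told apart. Whether the libraries of the groups were made together is not known, so their preparation cannot be told apart from age either. Below, "with age" names this comparison. In the adult hearts 38 of the 41 genes were lower at an edgeR adjusted p under 0.05, where 33.4% of the 15183 tested genes were called lower, and 33 of them were lower by more than 2-fold, against 13.9% of tested genes. The 3 WT hearts lay below all 3 floxed hearts in 39 genes, against 36.4% of tested genes. The median log2 fold change was -1.83, or 3.55-fold lower, beside -0.042 over all tested genes. Gmnn alone was called higher in the adult, a direction in which 31.8% of tested genes were called. Cardiomyocyte marker sums were 79456 to 91972 CPM in WT and 42234 to 49820.4 CPM in floxed hearts. Macrophage sums were 254 to 394 CPM in WT and 109.7 to 129 CPM in floxed hearts, and mural cell sums 1519 to 1585 and 891 to 978 CPM. Lower in WT without overlap were the sums for thymocytes, at 3.69 to 8.35 CPM against 25.1 to 33 CPM in floxed hearts, for the epicardium, at 36.4 to 50.6 against 109 to 139 CPM, and for fibroblasts, at 1398 to 1587 against 1681 to 1795 CPM. The fibroblast and mural lists did not move as one. Of the 7 fibroblast markers 2 were called higher and 2 lower in WT hearts, and of the 6 mural markers 4 were called higher and 1 lower. The thymocyte gene Rag2 was at 0 in every library. The part of these cell types in the result was not tested.

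Among the licensing genes 8 of 9 were lower in adult hearts, by a median of -1.91. Mcm7, a subunit of the helicase ring, was at 12.9, 10.5 and 12 CPM in WT and 38.9, 38 and 45.8 CPM in floxed hearts (log2 fold change -1.80, SE 0.11, edgeR adjusted p = 6.27e-06). The groups were far apart, and this was the smallest p among the 41. Mcm5 was at 6.88, 5.71 and 5.93 CPM in WT and 28.7, 25.5 and 44.7 in floxed hearts, 5.38-fold lower, and Mcm6 at 15.5, 16.4 and 16 CPM in WT and 54.7, 55 and 83.7 CPM in floxed hearts, 4.06-fold lower. The other ring subunits Mcm2, Mcm3 and Mcm4 were 3.55-, 3.76- and 2.61-fold lower. Of the loaders, Cdc6 fell by 4.91-fold and Cdt1 by 5.08-fold. Geminin, which binds and inhibits Cdt1, went the other way. Gmnn was at 34.5, 35.1 and 30.4 CPM in WT and 22.1, 23.2 and 26.7 CPM in floxed hearts, with a log2 fold change of 0.47 (SE 0.098, edgeR adjusted p = 0.00330). It was not called with all 12 libraries in one fit.

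Promoter sequence is shown for the genes called with age that held the most matches to a site bound by E2F factors. RefSeq promoters on GRCm38.p6, from 250 bases before to 50 bases after the start, were at hand for 32 of the 41 genes. Matches to any of the E2F octamers TTTCCCGC, TTTCGCGC, TTTGCCGC and TTTGGCGC on either strand, with overlapping matches counted separately, were present for 14 of the 32 genes, or 43.8%, against 2.60% of the 27025 genes in the promoter table. Mcm6 had 3 matches, Mcm3, Mcm5, Mcm7 and Rfc3 had 2, and Cdc6, Cdt1, Gins3, Pola1, Pold1, Lig1, E2f2, E2f7 and Uhrf1 had 1. Of the 20 matches 12 lay wholly upstream of the start. Of the called genes with most matches, Mcm6 and Mcm5 had them in upstream runs free of annotated exons. They are printed from 30 bases before the first upstream match to 30 after the last, Mcm6 at chr1:128359715-128359845 on the minus strand and Mcm5 at chr8:75109326-75109397 on the plus strand, 5′ to 3′ on the strand of the gene with the matches in capitals. Each block of 12 capitals holds a pair of matches on opposite strands that overlap.
Mcm6: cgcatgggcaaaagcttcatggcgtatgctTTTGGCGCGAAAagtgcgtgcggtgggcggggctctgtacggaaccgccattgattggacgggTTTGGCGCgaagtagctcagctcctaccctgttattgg
Mcm5: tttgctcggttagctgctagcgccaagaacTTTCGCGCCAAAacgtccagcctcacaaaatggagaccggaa
The 14 genes with a match had a median log2 fold change with age of -1.97 and the 18 without one -1.83, ranges of -2.84 to -0.27 and -3.56 to -0.75. CCAAT was found for 19 of the 32 genes against 41.1% of all genes in the table, and the cell cycle homology letters TTTGAA for 6 of the 32 against 20.2%. A match describes the letters and is not evidence of binding.

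**Figure D2:**
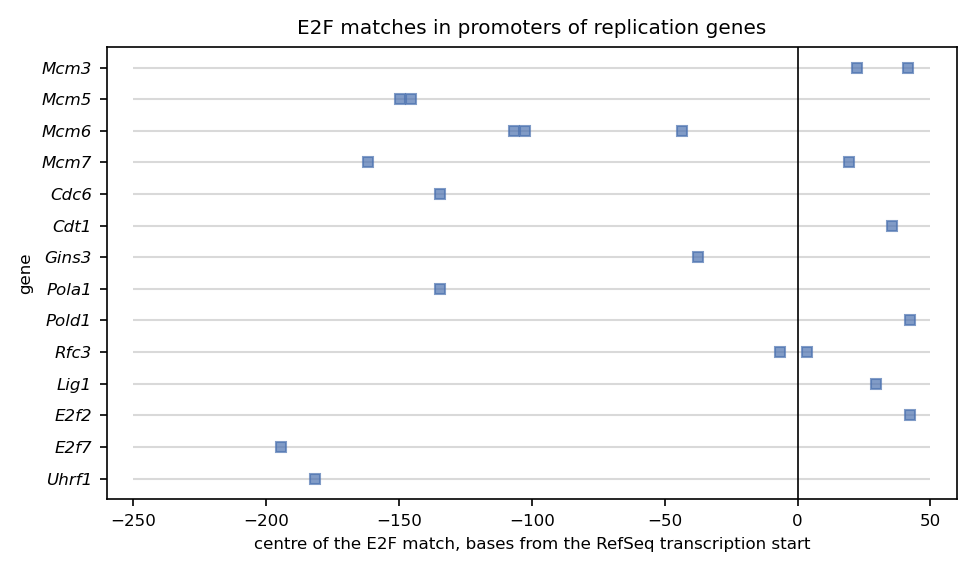
Position of each E2F match, as the distance of its centre in bases from the RefSeq transcription start (vertical line), for the 14 genes with a match among the 32 with a promoter sequence. The 20 matches run from -194.5 to 42.5 bases, and 11 have their centre within 50 bases of it.

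Helicase activation joins Cdc45 and the GINS complex to the loaded ring, with Mcm10 as a firing factor. In adult hearts 5 of these 6 genes were lower. Gins2 was at 0.579, 0.824 and 0.816 CPM in WT and 4.49, 4.95 and 6.82 CPM in floxed hearts (log2 fold change -2.87, SE 0.28, edgeR adjusted p = 5.35e-05). Mcm10 was at 0.804, 0.611 and 0.544 CPM in WT and 5.33, 4.54 and 9.13 CPM in floxed hearts, a drop of 9.81-fold. Both sets of values are well separated. Cdc45, Gins1 and Gins3 were 2.85-, 2.41- and 2.29-fold lower. Gins4 did not pass, with 14.5, 15.5 and 15.1 CPM in WT against 19.5, 17.2 and 16.2 CPM in floxed hearts and an edgeR adjusted p of 0.0680, although the groups did not overlap. The members of one complex had different sizes of change on the log2 scale, from -2.87 for Gins2 to -0.24 for Gins4. Gins1 and Gins3 were at -1.27 and -1.19. Reads of Gins2 may not be separable from those of Gse1.

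Polymerase alpha and primase make the primers that polymerases delta and epsilon extend. Of the 6 genes in this group 5 were lower in adult hearts. Prim1, the catalytic primase subunit, was at 2.67, 2.99 and 2.50 CPM in WT and 15, 13.5 and 21.8 CPM in floxed hearts (log2 fold change -2.63, SE 0.23, edgeR adjusted p = 3.16e-05). The leading-strand polymerase Pole fell by 3.60-fold and the primase partner Prim2 by 2.48-fold. The polymerase alpha subunits moved less, Pola2 by 1.86-fold and Pola1 by 1.46-fold. Pold1, the catalytic subunit of polymerase delta, which also serves DNA repair, did not pass. It was at 15.6, 13.2 and 14 CPM in WT and 16.1, 14.8 and 20.6 CPM in floxed hearts, which overlap (edgeR adjusted p = 0.122).

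All 7 genes of the sliding clamp, its loader and lagging-strand maturation were lower in adult hearts, 4 of them by more than 2-fold. Rfc3, a clamp loader subunit, was at 3.50, 3.24 and 3.56 CPM in WT and 11.6, 13.3 and 13.5 CPM in floxed hearts (log2 fold change -1.90, SE 0.13, edgeR adjusted p = 8.37e-06). Lig1, the ligase that seals Okazaki fragments, fell by 4.35-fold, Rfc5 by 2.72-fold and the flap nuclease Fen1 by 2.11-fold. Pcna, the clamp, was at 27.6, 26.3 and 24.3 CPM in WT and 39.2, 38.9 and 54.2 CPM in floxed hearts, 1.70-fold lower. Rfc2 and Rfc4 were 1.72- and 1.68-fold lower. The clamp loader subunits Rfc2, Rfc3, Rfc4 and Rfc5 therefore ranged from -1.90 to -0.75 in log2 fold change. Rfc2, Rfc4 and Rfc5 each share some exon bases with a gene on the opposite strand, and Rfc3 does not. Rfc1, a subunit outside this group of genes, was at 78.6, 77.0 and 76.8 CPM in WT hearts. In floxed hearts Rfc1 was at 79.3, 73.1 and 77.3 CPM, which overlaps the WT values.

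The genes of deoxynucleotide supply held the largest drop among the 41. Rrm2, the S-phase subunit of ribonucleotide reductase, was at 5.21, 3.88 and 4.49 CPM in WT and 48.3, 42.8 and 68.5 CPM in floxed hearts (log2 fold change -3.56, SE 0.22, edgeR adjusted p = 7.09e-06), an 11.8-fold difference. On GRCm38 the gene lies on the plus strand of chromosome 12 from 24708241 to 24714146, and the 41 genes are spread over 15 chromosomes. Its partner Rrm1, the large subunit, was at 31.5, 29 and 26.4 CPM in WT and 86.1, 82.9 and 117 CPM in floxed hearts (log2 fold change -1.73, SE 0.15, edgeR adjusted p = 2.85e-05). Tk1, thymidine kinase, was at 3.05, 3.21 and 2.80 CPM in WT and 12.7, 13.9 and 16.3 CPM in floxed hearts (log2 fold change -2.25, SE 0.15, edgeR adjusted p = 7.44e-06). In all of them the adult values were tightly grouped and below every P1 value. Tyms, thymidylate synthase, was 4.38-fold lower.

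All 6 genes of S-phase entry were lower in adult hearts by more than 2-fold. E2f8, an atypical E2F that represses E2F targets late in S phase, was at 2.28, 2.44 and 2.09 CPM in WT and 14.4, 14.6 and 23.1 CPM in floxed hearts (log2 fold change -2.94, SE 0.25, edgeR adjusted p = 2.97e-05). The activators E2f1 and E2f2 fell by 6.78- and 4.41-fold, and the other atypical factor, E2f7, by 3.44-fold. Transcripts of these activators and of the atypical factors thus fell together. Other E2F genes, outside this group, did not all follow. E2f3 and E2f5 were lower in adult hearts, with WT means of 21.3 and 5.54 CPM and floxed means of 42.1 and 9.18 CPM. E2f6 was higher in adult hearts, with a WT mean of 136.6 CPM and a floxed mean of 66.1 CPM. E2f4 differed little, at 28.2, 25.6 and 25.2 CPM in WT and 23.8, 21.4 and 25.1 CPM in floxed hearts. Its lowest WT heart and highest floxed heart were nearly level. The E-type cyclins fell by 3.58-fold for Ccne1 and 2.69-fold for Ccne2. The 3 genes of replication-coupled chromatin had the lowest median of any role, at -2.84. Chaf1b, a subunit of the histone chaperone CAF-1, was at 1.03, 0.977 and 0.762 CPM in WT and 6.75, 7.87 and 12.6 CPM in floxed hearts (log2 fold change -3.32, SE 0.35, edgeR adjusted p = 8.75e-05). Its partner Chaf1a fell by 2.94-fold, and Uhrf1, which recruits the maintenance DNA methyltransferase to new DNA, by 7.15-fold.

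**Figure D3:**
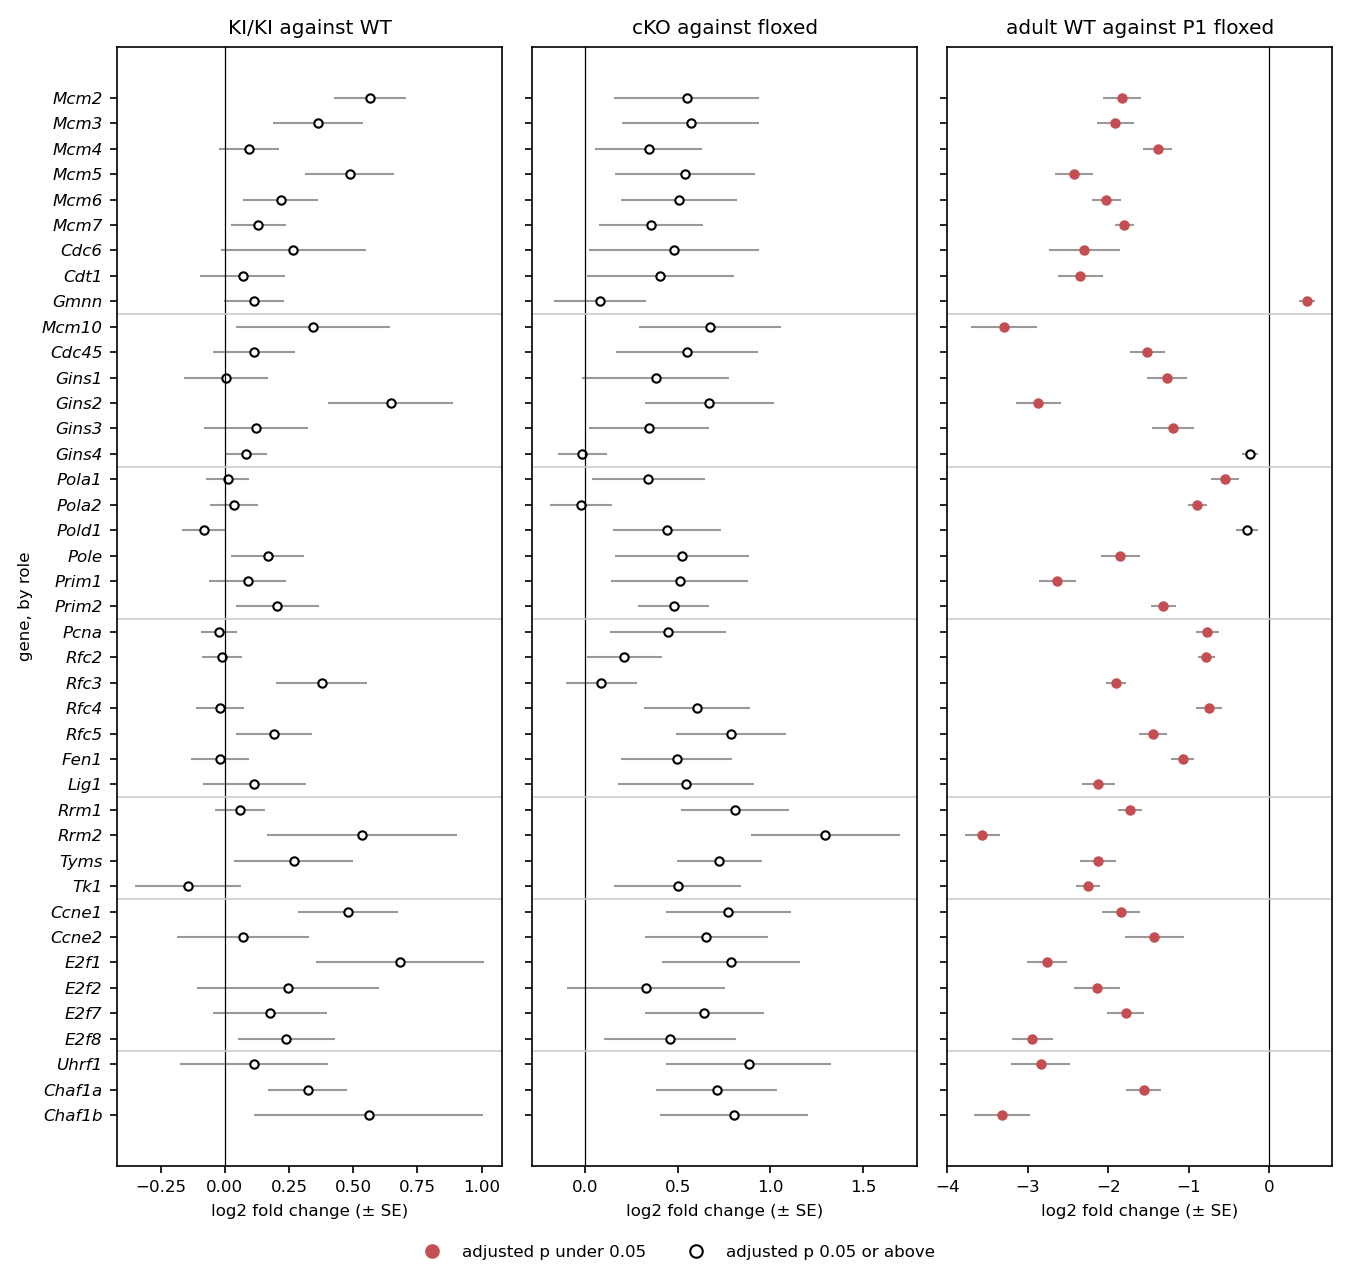
Log2 fold change with its standard error for each of the 41 genes in 3 comparisons, from edgeR (3 hearts per group), ordered by role. Filled points have an adjusted p under 0.05 over all tested genes. In adult WT against P1 floxed hearts 39 points are filled, and in the other panels none is, although most points lie to the right of 0.

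At P1, cKO hearts were compared with floxed hearts to ask how the genes stand after loss of Lemd2 in cardiomyocytes. The Cre transgene and the deletion differ together between these groups and cannot be told apart. No gene of the 41 passed an adjusted p of 0.05 in edgeR, where 9.32% of the 15317 tested genes were called higher and 7.57% lower. The log2 fold change was above 0 for 39 genes, with a median of 0.51 (1.42-fold) beside -0.0043 over all tested genes. An unadjusted p under 0.05 was reached by 5 genes, Rrm2, Tyms, Rrm1, Rfc5 and Prim2, all higher, where 18.5% of tested genes were higher at that p. The cKO hearts lay above all floxed hearts in 1 gene, Rrm2, against 19.9% of tested genes. DESeq2 called 3 of the 41, Tyms, Rrm1 and Rfc5, all higher, where it called 13.7% of tested genes higher, and limma-voom called 0. The size of the median rested on 1 heart, since without cKO heart 6 the median was 0.059 and 26 genes were above 0.

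The spread inside each P1 group had a regular order. cKO heart 6 was the highest of the 6 P1 hearts in 41 of 41 genes, against 23.7% of tested genes. cKO heart 4 was the lowest of its group in 41 of 41, against 43.8%, and floxed heart 3 was the highest of its group in 40 of 41, Gins4 being the exception, against 41.5%. Relative to the floxed mean, the median ratio over the 41 genes was 0.860 in cKO heart 4, 1.27 in heart 5 and 2.22 in heart 6, and 30 genes in heart 6 were more than 2-fold above that mean. In cKO heart 4, 25 genes lay within the floxed range, 15 below it and 1 above it, where 28.5% of tested genes lay within it, 38.7% below and 32.8% above. Fibroblast and endothelial marker sums were also highest in cKO heart 6 among the P1 hearts, at 2448 and 1564 CPM against 1681 to 1795 and 1048 to 1131 CPM in floxed hearts. Cardiomyocyte marker sums were 33540.5, 37525.4 and 39549.6 CPM in cKO hearts 4, 5 and 6 and 42234 to 49820.4 CPM in floxed hearts. Mural sums were 580, 741 and 1018 CPM in the same cKO hearts and 891 to 978 CPM in floxed hearts. Among cKO hearts both rose in the order of the 41 genes. Thymocyte sums were 14.1 to 16.8 CPM in cKO and 25.1 to 33 CPM in floxed hearts. Only 2 of the 8 thymocyte genes had enough counts to be tested, and Rag1 was at 0.478 CPM or below. Macrophage sums were 257, 185 and 146 CPM in cKO hearts 4, 5 and 6 and 109.7 to 129 CPM in floxed hearts, so that among cKO hearts their order was the reverse of that of the 41 genes. The part of these transcripts, and of the Xist signal in heart 4, in the order of the hearts was not tested.

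Nucleotide supply genes had the smallest p among the roles in cKO hearts, and their median was 0.77 in log2 fold change. Rrm2 was at 48.3, 42.8 and 68.5 CPM in floxed and 71.7, 101 and 222 CPM in cKO hearts (log2 fold change 1.30, SE 0.40, edgeR adjusted p = 0.0668). Every cKO heart was above every floxed heart, by a small margin for heart 4 and by a wide one for heart 6. It was called when all 12 libraries shared a fit (adjusted p = 0.0319), with Y-linked expression as a covariate (0.0363) and without cKO heart 4 (0.0325). The P1 hearts other than cKO heart 4 held 96.9 to 124 CPM of Ddx3y, so the covariate mainly marks heart 4. The covariate fit and the fit without heart 4 are therefore not separate checks. Tyms was at 11.7, 10.1 and 16.4 CPM in floxed and 16.3, 19.9 and 27.2 CPM in cKO hearts (log2 fold change 0.72, SE 0.23, edgeR adjusted p = 0.0719). Here cKO heart 4 and floxed heart 3 were nearly level. Rrm1 was at 86.1, 82.9 and 117 CPM in floxed and 111, 139.7 and 253 CPM in cKO hearts (log2 fold change 0.81, SE 0.29, edgeR adjusted p = 0.0989), again with heart 4 just below floxed heart 3. Tk1 was at 12.7, 13.9 and 16.3 CPM in floxed and 12, 16.3 and 33.1 CPM in cKO hearts, with a log2 fold change of 0.50.

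**Figure D4:**
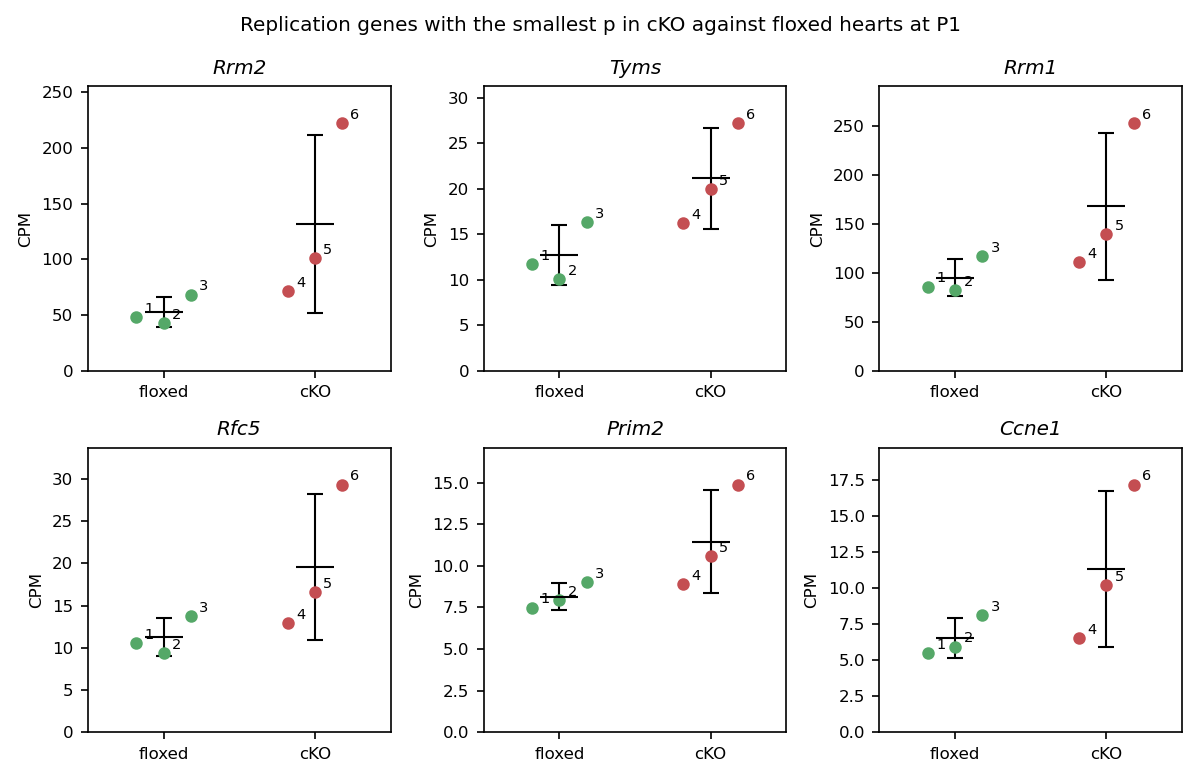
CPM of the 6 genes with the smallest p in floxed and cKO hearts at P1. Each point is a heart, numbered by its replicate, and the bar and whiskers are the mean and SD of 3 hearts. In each panel cKO heart 6 is highest, and Rrm2 is the gene in which the groups do not overlap.

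In the other roles the best-supported genes showed the same order of hearts. Rfc5 was at 10.6, 9.39 and 13.8 CPM in floxed and 12.9, 16.6 and 29.3 CPM in cKO hearts (log2 fold change 0.79, SE 0.30, edgeR adjusted p = 0.112). Prim2 was at 7.49, 7.93 and 9.04 CPM in floxed and 8.88, 10.6 and 14.9 CPM in cKO hearts (log2 fold change 0.48, SE 0.19, edgeR adjusted p = 0.128). Ccne1, the cyclin that partners Cdk2 at the G1/S boundary, was at 5.53, 5.95 and 8.15 CPM in floxed and 6.53, 10.2 and 17.2 CPM in cKO hearts (log2 fold change 0.77, SE 0.34, edgeR adjusted p = 0.154). In all of these cKO heart 4 fell inside the floxed range. Chaf1a was at 12.5, 10.9 and 18.2 CPM in floxed and 14.1, 20.3 and 34.4 CPM in cKO hearts (log2 fold change 0.71, SE 0.33, edgeR adjusted p = 0.172), and Gins2 at 4.49, 4.95 and 6.82 CPM in floxed and 5.37, 7.10 and 13.8 CPM in cKO hearts (log2 fold change 0.67, SE 0.35, edgeR adjusted p = 0.219). Mcm6 had the smallest p of the licensing genes, with 54.7, 55 and 83.7 CPM in floxed and 57.2, 81.5 and 138 CPM in cKO hearts (log2 fold change 0.51, SE 0.31, edgeR adjusted p = 0.287). cKO heart 5 was just below floxed heart 3 and heart 6 well above it.

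The remaining genes had log2 fold changes from -0.022 to 0.88, none past the threshold. Uhrf1 was at 23.5, 21 and 42.8 CPM in floxed and 26.7, 46.3 and 89.5 CPM in cKO hearts, with an SE of 0.45 on the log2 scale. Among the licensing genes Mcm2 was at 0.55, Mcm3 at 0.57, Mcm5 at 0.54 and Cdc6 at 0.48, with standard errors of 0.37 to 0.46. Pcna, widely used as a marker of replicating cells, was at 39.2, 38.9 and 54.2 CPM in floxed and 38, 49.9 and 94 CPM in cKO hearts, a log2 fold change of 0.45 with an SE of 0.31. The entry factors E2f1 and E2f7 were at 0.79 and 0.64. Close to 0 were Gmnn at 0.081, Rfc3 at 0.088, Gins4 at -0.016 and Pola2 at -0.022.

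Mitosis genes and replication genes did not keep the same proportion in the P1 groups. The geometric mean of 30 mitosis genes was 20.9, 20.8 and 26.3 CPM in floxed and 35.8, 42.5 and 86.4 CPM in cKO hearts, so the groups did not overlap, whereas those of the 41 replication genes did. Of the 30, 16 were called higher in cKO hearts and 0 lower, where 9.32% of tested genes were called higher and 7.57% lower, and their median was 1.24 in log2 fold change beside -0.0043 over all tested genes. The ratio of the mitosis to the replication mean was 1.41, 1.51 and 1.25 in floxed and 2.40, 2.06 and 2.39 in cKO hearts, with no overlap. It was 0.665, 0.442 and 0.442 in WT hearts, and the KI/KI hearts gave 0.499, 0.779 and 0.480. cKO heart 4, which was above all floxed hearts in 1 of the 41 replication genes, was above them in 25 of the 30 mitosis genes, against 32.8% of tested genes. These ratios are descriptions, and the difference between the lists was not tested.

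**Figure D5:**
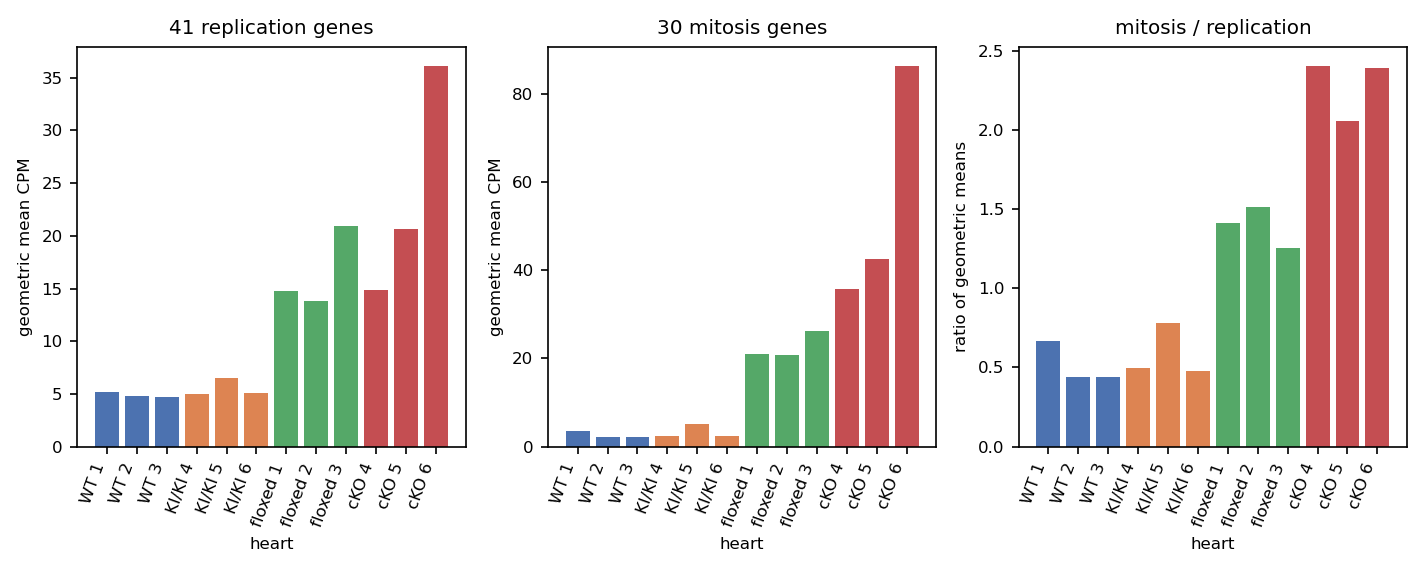
Geometric mean CPM of the 41 replication genes (left) and of 30 mitosis genes (middle) in each heart, and their ratio (right), one bar per heart coloured by group. Replication genes overlap between floxed and cKO hearts, whereas the mitosis mean and the ratio are higher in each cKO heart than in each floxed heart.

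A list of 65 other replication and S-phase genes had 5 called higher and 1 lower in cKO hearts, no larger a share than the 9.32% of tested genes called higher and the 7.57% called lower. Their median was 0.31 in log2 fold change, beside -0.0043 over all tested genes. Dbf4, the activating subunit of the Cdc7 kinase that fires origins, had the smallest p. It was at 16.2, 16.5 and 17.5 CPM in floxed and 33.1, 35 and 57.6 CPM in cKO hearts (log2 fold change 1.32, SE 0.21, edgeR adjusted p = 0.0108), and the groups did not overlap. Rbl2, a pocket protein that holds E2F targets silent in resting cells, was lower, at 79.8, 73.3 and 56.8 CPM in floxed and 46.5, 40.5 and 44.9 CPM in cKO hearts (log2 fold change -0.67, SE 0.14, edgeR adjusted p = 0.0247). Rnaseh2c, a subunit of the nuclease that removes ribonucleotides from DNA, was at 6.70, 7.26 and 6.91 CPM in floxed and 9.42, 9.71 and 10.9 CPM in cKO hearts (log2 fold change 0.52, SE 0.11, edgeR adjusted p = 0.0262). Pole3, an accessory subunit of polymerase epsilon, was at 9.68, 11.2 and 10.5 CPM in floxed and 14.9, 13.2 and 15.2 CPM in cKO hearts (log2 fold change 0.46, SE 0.11, edgeR adjusted p = 0.0364). Cdc25a and E2f4 were the other genes called higher, and they are named after their values were seen. Of 11 tested D-type cyclins, their kinases and CDK inhibitors, 1 was called, Cdkn1a, which encodes the inhibitor p21, with a log2 fold change of 1.73 (edgeR adjusted p = 0.00481), also named after its values were seen.

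With age, 43 of the 65 other replication genes were lower and 6 higher in adult hearts, a median of -0.95, where 33.4% of tested genes were called lower and 31.8% higher and the median was -0.042. Dbf4 was 6.47-fold lower (edgeR adjusted p = 1.28e-06), Cdk2, the partner of cyclin E, 3.69-fold (2.56e-06), the histone chaperone Nasp 3.28-fold (5.13e-06) and cyclin A2 (Ccna2) 13.5-fold (5.72e-06). Of the 30 mitosis genes 28 were lower and 2 higher, with a median of -3.35. The cyclin D and inhibitor list had 6 lower and 1 higher of 11, a share of lower calls closer to that of all tested genes than in the other lists, with a median of -0.34.

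In adult hearts, KI/KI mice were compared with WT mice. No gene of the 41 passed an adjusted p of 0.05 in edgeR, and none of the 14592 tested genes did (0%). DESeq2 called 1 of the 41, Mcm2, where it called 2.16% of tested genes higher, and limma-voom called 0. An unadjusted p under 0.05 was reached by 4 genes, Mcm2, Mcm5, Gins2 and Ccne1, all higher, against 8.92% of tested genes higher at that p. The KI/KI hearts lay above all WT hearts in these and in Rfc3 and Chaf1a, 6 of the 41 against 11.4% of tested genes. The median log2 fold change was 0.13 beside 0.0023 over all tested genes, with 35 genes above 0. KI/KI heart 5 was the highest adult heart in 29 of the 41 genes, against 29.1% of tested genes, and without it the median was 0.0080 and 23 genes were above 0. That heart also had the highest fibroblast marker sum of the adult hearts, 2240 CPM against 1398 to 1587 CPM in WT hearts, the highest endothelial sum, 1367 CPM against 1101 to 1246 CPM in WT hearts, and the lowest cardiomyocyte sum. Macrophage sums were 417 to 498 CPM in KI/KI and 254 to 394 CPM in WT hearts, without overlap and highest in heart 5. The part of these cell types was not tested.

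Mcm2 had the smallest p of the 41 in KI/KI hearts. It was at 10.2, 10.8 and 12.5 CPM in WT and 13.7, 18.1 and 17.6 CPM in KI/KI hearts (log2 fold change 0.56, SE 0.14, edgeR adjusted p = 0.213), with the highest values in hearts 5 and 6. Its DESeq2 adjusted p was 0.0250. Gins2 was at 0.579, 0.824 and 0.816 CPM in WT and 1.04, 1.35 and 1.07 CPM in KI/KI hearts (log2 fold change 0.65, SE 0.24, edgeR adjusted p = 0.283). Ccne1 was at 2.09, 1.40 and 2.01 CPM in WT and 2.47, 2.76 and 2.42 CPM in KI/KI hearts (log2 fold change 0.48, SE 0.20, edgeR adjusted p = 0.305), a separation without overlap like that of Mcm2 and Gins2. Rfc3 was at 3.50, 3.24 and 3.56 CPM in WT and 3.57, 5.32 and 4.38 CPM in KI/KI hearts (log2 fold change 0.38, SE 0.18, edgeR adjusted p = 0.343), with heart 4 only just above the WT hearts. Chaf1a was at 5.24, 4.70 and 4.35 CPM in WT and 5.27, 6.99 and 5.45 CPM in KI/KI hearts (log2 fold change 0.32, SE 0.15, edgeR adjusted p = 0.347).

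Some genes owed their KI/KI mean to heart 5. Rrm2 was at 5.21, 3.88 and 4.49 CPM in WT and 4.77, 10.5 and 4.13 CPM in KI/KI hearts (log2 fold change 0.53, SE 0.37, edgeR adjusted p = 0.482), and its fold change was -0.022 without heart 5. Chaf1b was at 1.03, 0.977 and 0.762 CPM in WT and 0.864, 2.23 and 0.843 CPM in KI/KI hearts, and E2f1 at 1.87, 1.43 and 1.69 CPM in WT and 1.76, 3.87 and 2.22 CPM in KI/KI hearts. Hearts 4 and 6 were inside the WT range in Rrm2 and Chaf1b, and heart 6 was slightly above it in E2f1. Prim2 had the smallest p of the polymerase group, at 3.79, 3.27 and 2.88 CPM in WT and 3.66, 4.28 and 3.40 CPM in KI/KI hearts (log2 fold change 0.21, SE 0.16, edgeR adjusted p = 0.532). Below 0 were 6 genes, Tk1 at -0.14, Pold1 at -0.082, Pcna at -0.022, Fen1 at -0.020, Rfc4 at -0.018 and Rfc2 at -0.012, all with adjusted p above 0.5. Over the 65 other replication genes and the 29 tested mitosis genes 0 were called, with medians of 0.095 and 0.47. The mitosis median leaned on heart 5, which was the highest adult heart in 27 of the 29 genes, against 29.1% of tested genes. The geometric mean of the 30 mitosis genes was 3.43, 2.12 and 2.07 CPM in WT and 2.49, 5.07 and 2.44 CPM in KI/KI hearts, so that hearts 4 and 6 lay inside the WT range.

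Whether the Lemd2 models differed in these genes was tested as the KI/KI minus WT difference less the cKO minus floxed difference, in a fit of all 12 libraries. Model and age cannot be told apart in it. None of the 41 genes passed in edgeR, DESeq2 or limma-voom, and in edgeR none had an unadjusted p under 0.05, while 2.43% of the 15729 tested genes were called. The smallest p was that of Rrm1, with a difference of -0.76 in log2 fold change (SE 0.35, edgeR adjusted p = 0.259). The difference was below 0 for 36 genes, with a median of -0.34. Of the 65 other replication genes 1 was called, Rbl2, at 0.72 (SE 0.16, edgeR adjusted p = 0.0409), at 95.4, 99.7 and 95.8 CPM in WT and 105, 95.7 and 102 CPM in KI/KI hearts.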

How the data were processed

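RNA from 12 mouse hearts was analysed, from 3 WT, 3 KI/KI, 3 floxed and 3 cKO mice. The authors made poly(A)-selected single-end libraries, used Trim Galore for trimming and STAR 2.7.2b for alignment to mm10, and deposited unnormalized HTSeq counts per gene symbol. The strand setting is not given in the sources used here. Groups follow the genotype and age labels. Counts were tested in R 4.3.3 with edgeR 4.0.16, using TMM scaling, filterByExpr, the robust quasi-likelihood test and Benjamini-Hochberg adjustment over all tested genes. The 6 libraries of each comparison entered its fit, all 12 entered the test between models, and the call was an adjusted p under 0.05. Standard errors are the log2 fold change divided by the root of the F statistic. The 41 genes, role groups and other lists were chosen with earlier results of these data known. Full statistics are given for the gene of each role with the smallest p and, with age and in cKO hearts, for the 6 smallest overall. Of the other replication genes, up to 4 called genes with the smallest p per comparison are named. All other genes are named for their range or exception, after their values were seen. Promoter runs were to be printed for up to 4 called genes with the most E2F matches, ties being ordered by p with age, and those overlapping annotated exons (Mcm7, Rfc3) were left out. Exon lengths are unions from GENCODE M21 on GRCm38. No replicate pair held identical counts, and chi-square per degree of freedom between replicates was 19.3 or more. Totals were 37063669 to 44789753 counts, at which 3 counts equal 0.0599 to 0.0965 CPM, counting error only. Alternatives were DESeq2 1.42.0, limma-voom 3.58.1, RLE size factors, testing every gene, a minimum of 10 counts in each library, a fit of all 12 libraries, a fold above 2, a Y-linked covariate, a replicate block and each library left out. The script was tested on simulated counts.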

Additional observations from a re-analysis of the deposited data

How the results depend on the processing

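The count of 39 genes called with age stayed between 37 and 40 in every alternative that kept the same threshold, the lowest with all 12 libraries in one fit, and was 33 with a fold above 2. WT and floxed hearts share replicate numbers, but hearts with the same number did not deviate together (correlations of -0.25, -0.32 and -0.56). Deviations were taken from means of 3 hearts and depend on one another, so they cannot settle whether the numbers pair the hearts. With the replicate block 39 genes were called, with a median of -1.80. The median with age ran from -1.93 without floxed heart 1 to -1.54 without floxed heart 3. In KI/KI hearts DESeq2 called 1 gene in place of 0, and leaving out each heart gave 0 calls. The median of 0.13 ranged from 0.0080 without KI/KI heart 5 to 0.23 without heart 4, and Rrm2 ranged from -0.022 without heart 5 to 0.77 without heart 6. In cKO hearts 0 became 3 with DESeq2, 4 with all 12 libraries in one fit (Rfc5, Rrm1, Rrm2 and Tyms) and 1 with the Y-linked covariate (Rrm2), and leaving out each heart gave 0 to 3, the 3 (Ccne1, Rrm1 and Rrm2) without cKO heart 4. Whether these come from the pooled spread or the hearts was not tested. The median of 0.51 ranged from 0.059 without cKO heart 6 to 0.79 without cKO heart 4. It was 0.83 with the covariate, which mainly marks cKO heart 4. In the test between models 0 genes were called under each alternative. Standard errors of the 41 genes in cKO hearts ran from 0.13 for Gins4 to 0.46 for Cdc6 on the log2 scale, so the size of difference that could be told from 0 varied between genes.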
